A study of Mus musculus with 72 samples.

Results

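The transcriptional response of mouse melanoma line 1064 to gastrin-releasing peptide (GRP) was measured by RNA sequencing in 6 libraries: 3 of cells exposed for 4 h to 10 nM GRP and 3 of mock-treated cells given 0.1% DMSO. They were taken by their labels from the 72 libraries of a series that holds 6 lines, 4 treatments and 3 replicates of each. All cells had been starved for 18 h in 0.5% FCS and were treated in the same low serum. The other libraries of line 1064, 3 with 1 µM RC-3095 (an antagonist of the GRP receptor, RC) and 3 with GRP+RC, entered the fit to estimate the spread and are given only as values. Line 1064 was established from a melanoma of a female mouse of the genotype Tyr::NRASQ61K/°; Cdkn2a-/-; Tyr::CreA/°; Cdh1dF/dF, so mutant NRAS and Cre were both driven by the tyrosinase promoter, E-cadherin was deleted in the melanocyte lineage, and mock and GRP cells shared all of these alleles. The labels class it as positive for the GRP receptor, and it is a single line. The 12 libraries of line 1057, which the study describes as a female melanoma line with E-cadherin deleted, entered only the comparison between lines.

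The GRP receptor, encoded by Grpr, is a bombesin receptor that couples to Gq proteins. Its activation turns on phospholipase C, which releases calcium from internal stores through IP3 and activates protein kinase C through diacylglycerol. In many cell types this signal reaches MAP kinases and the actin cytoskeleton, and from there early transcription factors such as AP-1, serum response factor (SRF) and the coactivators YAP and TAZ.

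Libraries of line 1064 held 20525837 to 32668855 counts, so that 3 counts correspond to 0.092 to 0.146 CPM, the count scaled to the size of the library. Mitochondrial genes took 1.85% to 2.48% of counts. All 7 melanocytic markers were present, with summed levels of 17260 to 38410 TPM, a level scaled to transcript length and library size, in mock and 15020 to 37010 TPM in GRP libraries. Of the other cell types, fibroblast markers (3 of 5 above 3 counts in a library) summed to 4.71 to 13.54 TPM in mock and 3.8 to 9.82 TPM in GRP, macrophage and leukocyte markers (2 of 5) to 3.51 to 9.72 and 6.9 to 10.98 TPM, endothelial markers (3 of 4) to 2.37 to 3.92 and 2.67 to 4.05 TPM, and epithelial markers (0 of 5) to at most 0.08 TPM. Lum, Ptprc, Tyrobp, Kdr, Krt5 and Krt8 were at 0 in all 6 libraries. Of the genes deleted in this line, Cdh1 had 0 or 1 count in each of the 6 libraries, whereas Cdkn2a kept 150 to 181 counts in mock and 106 to 151 in GRP, a total over the gene that does not tell which exons were read.

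To show the sequences next to which the response was measured, stretches just upstream of the transcription start are printed for 7 genes, 5′ to 3′ on the strand of the gene, with the searched motif in capitals. Plaur (chr7:24462353-24462482, plus strand) and Mmp10 (chr9:7502212-7502341, plus strand) carry an AP-1 element. Srf (chr17:46556163-46556292, minus strand) and Cnn2 (chr10:79988470-79988599, plus strand) carry CArG boxes, the sequence that SRF binds. Nr4a1 (chr15:101266596-101266845, plus strand) and Grpr itself (chrX:163549737-163549886, minus strand) hold the core of the cAMP response element, and Ccn1 (chr3:145649986-145650135, minus strand) holds an element recognised by TEAD factors, the DNA-binding partners of YAP. The sequences and positions are those of RefSeq on GRCm38.p6.
Plaur: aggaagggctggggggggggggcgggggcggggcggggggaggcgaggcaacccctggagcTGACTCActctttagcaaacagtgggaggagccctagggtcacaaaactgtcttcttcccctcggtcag
Mmp10: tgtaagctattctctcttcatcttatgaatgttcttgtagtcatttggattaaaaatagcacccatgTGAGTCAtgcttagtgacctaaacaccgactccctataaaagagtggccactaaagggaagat
Srf: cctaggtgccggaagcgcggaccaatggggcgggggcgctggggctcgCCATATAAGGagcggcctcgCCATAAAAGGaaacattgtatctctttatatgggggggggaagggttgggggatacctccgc
Cnn2: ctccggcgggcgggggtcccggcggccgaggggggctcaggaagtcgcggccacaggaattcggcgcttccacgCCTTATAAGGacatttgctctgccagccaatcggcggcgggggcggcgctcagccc
Nr4a1: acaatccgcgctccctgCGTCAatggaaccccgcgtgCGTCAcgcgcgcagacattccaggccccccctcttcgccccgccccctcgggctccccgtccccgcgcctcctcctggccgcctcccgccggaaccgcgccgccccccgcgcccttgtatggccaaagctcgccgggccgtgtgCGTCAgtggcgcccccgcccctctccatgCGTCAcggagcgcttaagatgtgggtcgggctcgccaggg
Ccn1: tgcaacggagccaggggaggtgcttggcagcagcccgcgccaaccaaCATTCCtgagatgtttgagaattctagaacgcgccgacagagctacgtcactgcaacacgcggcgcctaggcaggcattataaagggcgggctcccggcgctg
Grpr: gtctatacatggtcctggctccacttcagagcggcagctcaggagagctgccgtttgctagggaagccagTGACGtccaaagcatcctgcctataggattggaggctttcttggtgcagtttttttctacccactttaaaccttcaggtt
Counted from the start, the AP-1 element lies at position -69 in Plaur and -63 in Mmp10, the CArG boxes at -82 and -62 in Srf and at -56 in Cnn2, the cAMP response core at -233, -213, -69 and -40 in Nr4a1 and at -80 in Grpr, and the TEAD element at -103 in Ccn1.

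Many genes of line 1064 changed in level with GRP, and their number depended on the block and on the fold limit. With the replicate number as a block, 480 of 13794 genes tested were called higher (3.48%) and 420 lower (3.04%), a call being an adjusted p under 0.05 together with a log2 fold change beyond 1 in either direction. The rises were the more extreme, with 9 genes above 4 on the log2 scale, 22 between 3 and 4 and 73 between 2 and 3, whereas no gene fell by more than 4 and 4 fell by 3 to 4. By adjusted p alone 2833 genes were higher (20.5%) and 3173 lower (23%). Without the block, the same 12 libraries gave 210 genes called higher (1.52%) and 110 called lower (0.797%), of which 207 and 108 were also called with the block. In bulk RNA, fewer cells of a type and less RNA per cell cannot be told apart. The common biological coefficient of variation was 7.63% with the block and 26.4% without it. Levels of the 3 GRP libraries all lay above those of the 3 mock libraries in 1547 genes (11.2%) and all below in 1697 (12.3%), and this was so for 380 of the 480 and 257 of the 420 called genes. Called genes were chosen by these same libraries, so a lack of overlap in any of them is no separate support.

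**Figure D1:**
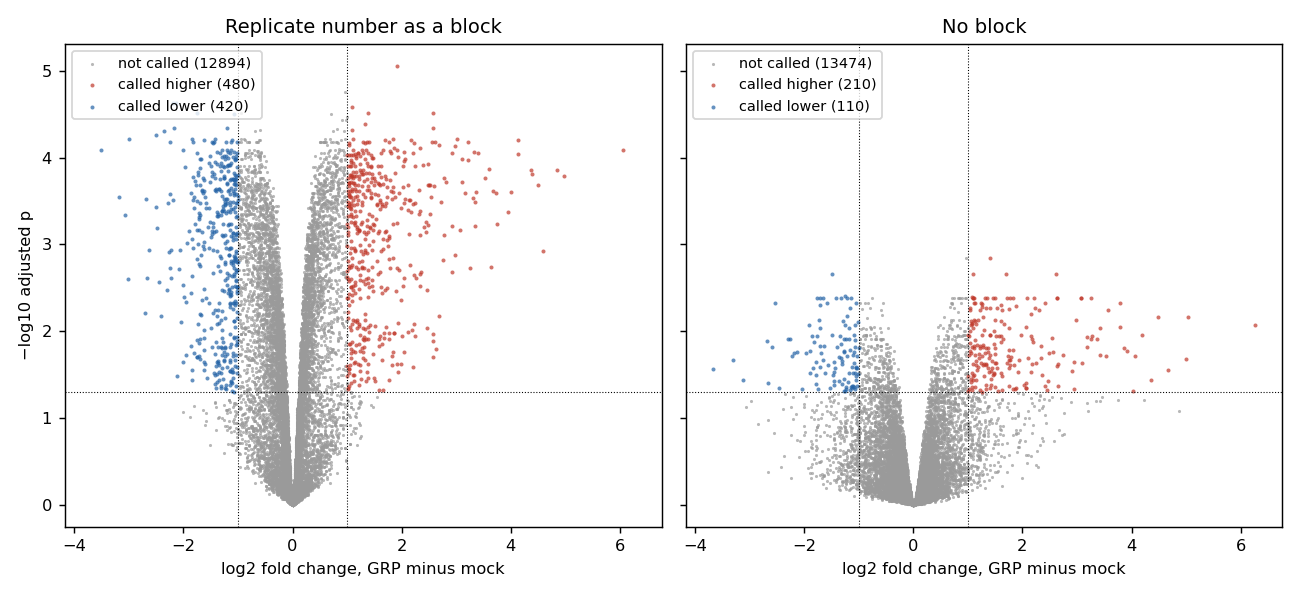
Each point is a gene of line 1064, with the log2 fold change of GRP over mock on the x axis and -log10 of the adjusted p on the y axis, fitted with the replicate number as a block (left) and without it (right); dotted lines mark the limits of a call. The block gives 480 genes called higher and 420 lower, against 210 and 110 without it.

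The size of the response differed between replicates. The median log2 ratio of a GRP library to the mock library of the same number was 1.63, 1.77 and 0.93 for the 480 genes called higher in replicates 1, 2 and 3, and -1.48, -1.40 and -0.86 for the 420 called lower. Replicate 3 thus gave the smallest ratios in both directions. These ratios describe genes chosen by the same libraries and carry no test. Of the called genes, 476 and 415 moved in their direction in all 3 pairs. Without replicate 3, 636 genes were called higher and 580 lower, without its mock library alone 651 and 601, and without replicate 1 252 genes were called lower.

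**Figure D2:**
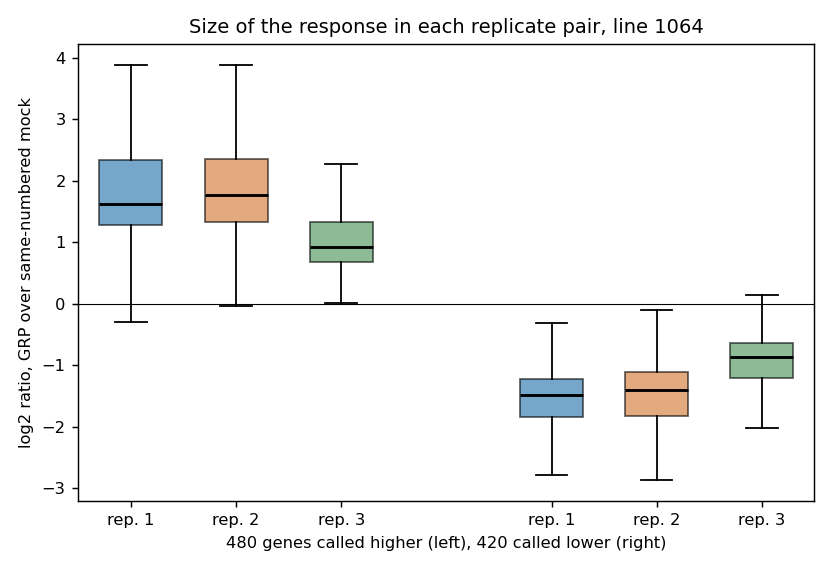
Boxes show the log2 ratio of each GRP library to the same-numbered mock library over the 480 genes called higher and the 420 called lower in line 1064 (line, median; box, quartiles; whiskers, furthest value within 1.5 box heights). The median of replicate 3 is 0.93 for rises and -0.86 for falls, nearer to 0 than in replicates 1 and 2.

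Transcripts of the receptor itself fell. Grpr (X chromosome, 163513904 to 163549677 on GRCm38) had 851, 1130 and 688 CPM in mock replicates 1 to 3 and 417, 451 and 460 CPM in the GRP libraries. The groups did not overlap and the mock values were spread more widely than the GRP values. The log2 fold change was -0.99 (SE 0.121, adjusted p = 0.000195), just inside the fold limit, so the gene was not called, and without the block it was -1.01 (adjusted p = 0.00788). It passed the fold limit without replicate 3 (-1.18), without its mock library (-1.17) or without its GRP library (-1.06). In GRP+RC the 3 libraries held 659, 674 and 659 CPM. Other bombesin receptors and ligands were near absent: Grp and Brs3 had no count in any of the 6 libraries (3 counts would be 0.092 to 0.146 CPM), Nmbr had 1 count in 1 library, and Nmb, the ligand neuromedin B, had 9 to 12 counts in mock and 11 to 21 in GRP (log2 fold change 0.73, adjusted p = 0.162). Of 16 tested members of the list of bombesin receptors, ligands, Gq proteins and phospholipases C, none was called (without the block 1, Grpr, was called lower). By adjusted p alone 3 were higher and 6 lower, against 20.5% and 23% over all genes tested. The median log2 fold change was -0.04, against -0.02 over all genes tested. Itpr1, an IP3 receptor that releases calcium, fell by 0.45 (adjusted p = 0.000631) on the log2 scale.

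**Figure D3:**
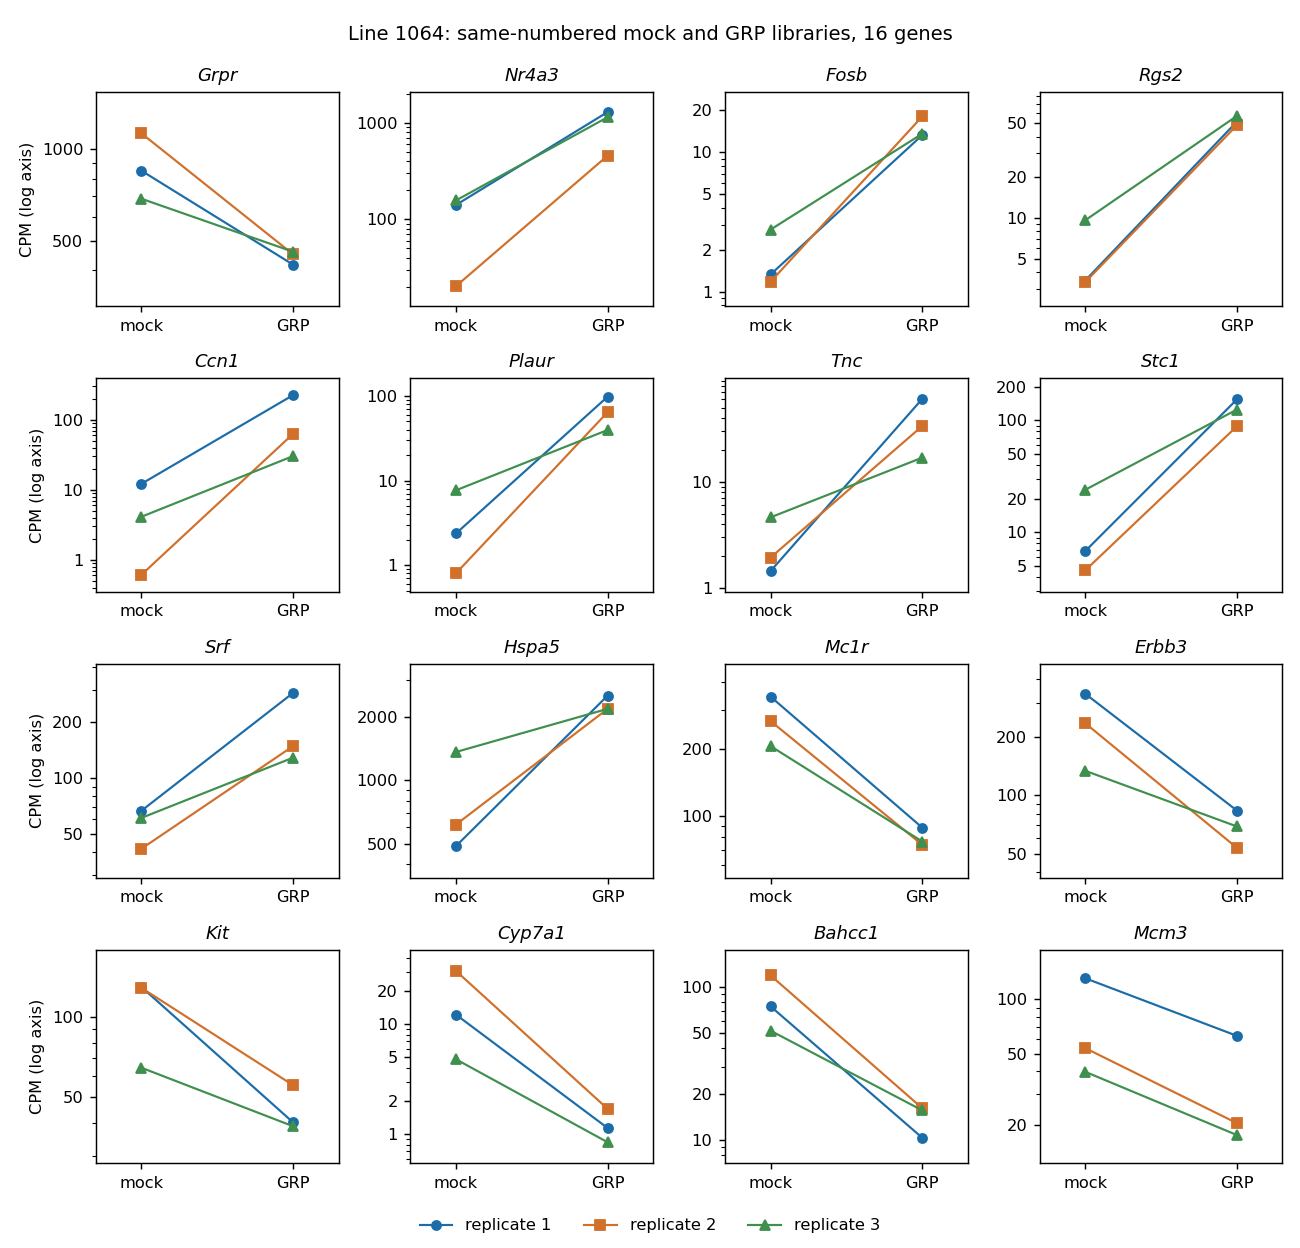
CPM (log axes) of 16 genes in the 3 mock and 3 GRP libraries of line 1064, with lines joining libraries of the same number. Grpr, Mc1r, Erbb3, Kit, Cyp7a1, Bahcc1 and Mcm3 fell in all 3 pairs and the other 9 genes rose in all 3; Mcm3 is the only gene shown whose mock and GRP values overlap.

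Early transcription factors rose together. In the list of AP-1, EGR and NR4A factors, 10 of 17 tested members were called higher and none lower (7 without the block). Over all genes tested 3.48% were called higher and 3.04% lower. The median log2 fold change of the list was 1.78. The orphan nuclear receptor Nr4a3 had 141, 20.4 and 157 CPM in mock and 1290, 457 and 1140 CPM in GRP (log2 fold change 3.36, SE 0.435, adjusted p = 0.000247). Replicate 2 was the lowest in both groups, and every GRP library was above every mock library. Its relative Nr4a1, whose promoter is printed above, went from 370, 178 and 383 CPM to 2800, 1290 and 1800 CPM (log2 fold change 2.60, SE 0.324, adjusted p = 0.000211). Fosb, a subunit of AP-1, went from 1.33, 1.18 and 2.79 CPM to 13.3, 18.1 and 13.6 CPM (3.01, SE 0.249, adjusted p = 6.13e-05). Egr4 rose by 2.78 (adjusted p = 0.000171) and Fosl1, another AP-1 subunit, by 2.72 (adjusted p = 0.000324), although 57.2% of the exons of Fosl1 overlap Ccdc85b on the other strand. Fos, Fosl2, Atf3, Egr3 and Nr4a2 were the remaining called members. Without the block Nr4a3 (adjusted p = 0.0679) and Egr4 (0.0662) were not called. Here and below such p-values are given only for genes printed with values. Further members named without values could also lose their calls, as the counts of each list without the block show. Not all of the family moved: Jun had 162, 198 and 198 CPM in mock and 154, 317 and 199 CPM in GRP (0.21, adjusted p = 0.161), and Jund passed by adjusted p with a change of 0.36 (adjusted p = 0.00322). The largest rise among the genes named by the rule was that of Npas4, an activity-regulated transcription factor, which had 0, 1 and 12 counts in mock and 273, 426 and 175 in GRP (6.05, SE 0.569, adjusted p = 8.15e-05). Because the mock counts are so few, the size of this change is poorly fixed.

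Among the KLF, IER and other early response genes, 7 of 23 were called higher and none lower (5 without the block), against 3.48% and 3.04% over all genes tested. By adjusted p alone 21 were higher, against 20.5% over all genes tested. Csrnp1, a nuclear protein of the early response, went from 10.2, 7.17 and 12.1 CPM to 71.2, 53.5 and 33.8 CPM (2.34, SE 0.218, adjusted p = 7.75e-05). Zfp36, which promotes decay of AU-rich mRNAs, rose by 1.57 (adjusted p = 0.000124, and 0.0669 without the block) and Klf4 by 1.43 (adjusted p = 0.00013). Ier3 passed by adjusted p at 0.97 (adjusted p = 0.000107), with 128 to 151 CPM in mock and 212 to 309 CPM in GRP, and was called without replicate 3 (1.11), its mock library (1.09), its GRP library (1.04) or GRP replicate 2 (1.04).

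Genes that restrain signalling rose as well. Of 9 tested genes of feedback on G proteins and calcium, 5 were called higher and none lower (2 without the block). The shares over all genes tested were 3.48% and 3.04%. Rgs2, which speeds the shutdown of Gq, went from 3.44, 3.35 and 9.6 CPM in mock to 51.6, 48.5 and 56.8 CPM in GRP (3.21, SE 0.338, adjusted p = 0.000108), and the GRP+RC libraries held 18.5, 15.1 and 13 CPM. Rgs16 went from 0.333, 0.566 and 0.850 CPM to 8.38, 14.3 and 3.18 CPM (3.60, adjusted p = 0.000137). Homer1 was also called. The calls of Rem2 and Rgs8 were fragile: Rem2 changed by 1.39 (adjusted p = 0.00895) and by 0.93 without replicate 2 (adjusted p = 0.158), and Rgs8 by 1.23 (adjusted p = 0.0284) and by 0.96 without replicate 2 (adjusted p = 0.112), and Rem2 also lost its call without replicate 3 (adjusted p = 0.0809), mock replicate 2 (0.0552) or GRP replicate 2 (0.0551), as did Rgs8 without replicate 1 (0.117), replicate 3 (0.0646), mock replicate 1 (0.0699), mock replicate 2 (0.0731), GRP replicate 2 (0.0715) or GRP replicate 3 (0.0951). Trib1 passed by adjusted p at 0.35 (adjusted p = 0.00316). Of 18 genes of MAP kinase feedback, 5 were called higher and none lower (2 without the block). Spry2, an inhibitor of receptor signalling to RAS, had 68.5, 66.4 and 93.7 CPM in mock and 243, 221 and 176 CPM in GRP (1.46, SE 0.168, adjusted p = 0.000153). Dusp5, a phosphatase of nuclear ERK, rose by 1.39 (adjusted p = 3.04e-05), with 22.1% of its exons overlapping AC137853.2 on the other strand. Errfi1, which inhibits ERBB receptors, rose by 1.57 (adjusted p = 0.00222), and by 0.91 without replicate 1 and 0.99 without its GRP library, which ended the call. Dusp8 rose by 1.11 (adjusted p = 0.003), and by 0.82 without replicate 2 or its mock library, which ended the call, as did leaving out replicate 1 (adjusted p = 0.0513). Dusp6 passed by adjusted p only, at 0.49 (adjusted p = 0.00304). Without the block Rem2 (adjusted p = 0.16), Rgs8 (0.204), Errfi1 (0.0618) and Dusp8 (0.0788) were not called.

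In the list of CREB targets and cAMP feedback, 3 of 14 were called higher and none lower, against 3.48% and 3.04% over all genes tested. All 3 were also called without the block. Sik1, a kinase induced by cAMP, went from 3.77, 3.25 and 5.10 CPM to 33.7, 19.3 and 21.2 CPM (2.57, SE 0.166, adjusted p = 3.04e-05), the clock gene Per1 rose by 1.69 (adjusted p = 6.37e-05) and Dclk1 by 1.24 (adjusted p = 9.63e-05). Pde3b, a phosphodiesterase, passed by adjusted p at 0.57 (adjusted p = 0.000333). The count table also has an entry for the microRNA gene Mir212, with 1, 0 and 6 counts in mock and 50, 13 and 52 in GRP (4.13, adjusted p = 9.18e-05). In a library of polyadenylated RNA these are reads over the host transcript and not the mature microRNA.

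Targets of SRF and genes of the actin cytoskeleton formed the list with the highest share of called members. Of 17 tested, 12 were called higher and none lower (7 without the block), against 3.48% and 3.04% over all genes tested. By adjusted p alone 16 were higher (20.5% over all genes), and the median log2 fold change was 1.33. Srf itself, counted above among the early response genes, had 66.6, 41.5 and 60.9 CPM in mock and 289, 149 and 129 CPM in GRP (1.66, SE 0.158, adjusted p = 8.28e-05). Cnn2, a calponin that binds actin, went from 165, 40.0 and 120 CPM to 569, 290 and 280 CPM (1.88, SE 0.25, adjusted p = 0.000282, and 0.0989 without the block). Tpm1, a tropomyosin, went from 242, 174 and 374 CPM to 875, 735 and 665 CPM (1.58, adjusted p = 0.000152). GRP libraries were above mock libraries without overlap for all 3. Actg2, a smooth muscle actin, was nearly absent in mock, with 6, 0 and 2 counts, and had 37, 34 and 46 in GRP (3.95, adjusted p = 0.000424). Tagln was called (1.94, adjusted p = 0.0294), but its mock libraries held 0.444, 0.236 and 0.668 CPM and its GRP libraries 5.11, 0.505 and 0.671 CPM, the change was 0.34 without replicate 1 (adjusted p = 0.607) and 0.46 without its GRP library (adjusted p = 0.414), leaving out replicate 2, mock replicate 1 or mock replicate 2 also ended the call (adjusted p = 0.0838, 0.242 and 0.0554), and 67.9% of its exons overlap Gm48529 on the other strand. Nor was Tagln called without the block (adjusted p = 0.148). Actg1, Tagln2, Vcl, Zyx, Flna, Flnc, Myh9 and Tpm4 were the other called members. The abundant Actb and Csrp1 passed by adjusted p, at 0.76 (adjusted p = 0.000741) and 0.90 (adjusted p = 3.71e-05).

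**Figure D4:**
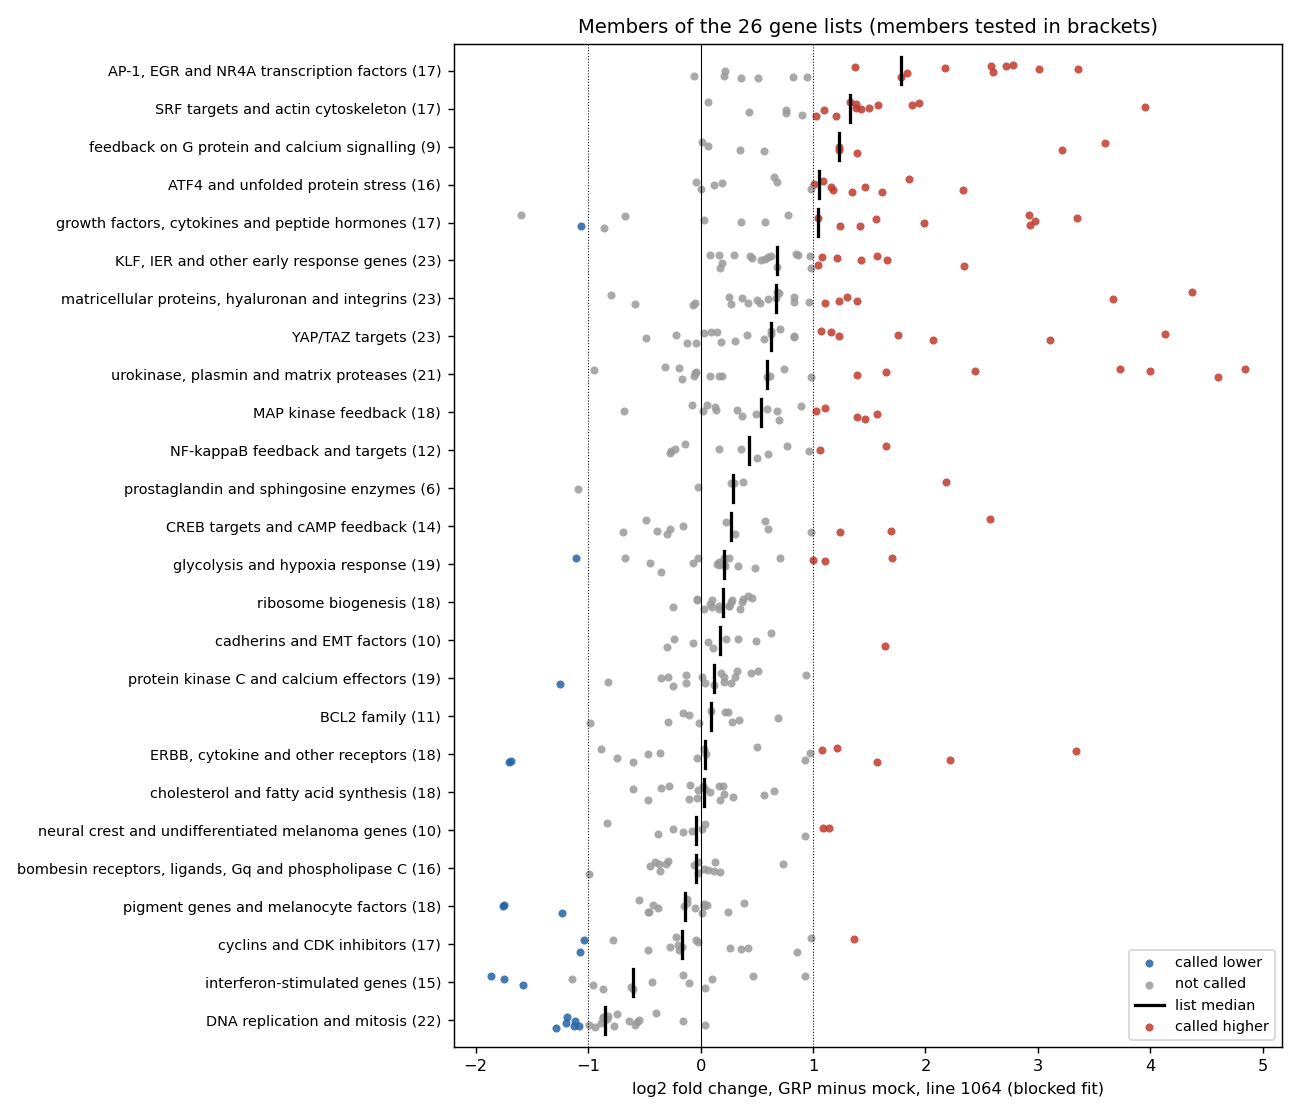
Each point is a tested member of 1 of the 26 gene lists, placed by its log2 fold change of GRP over mock in line 1064 (blocked fit), red where called higher and blue where called lower; black bars are list medians and dotted lines the fold limit. Lists are ordered by median, from 1.78 for AP-1, EGR and NR4A factors to -0.85 for DNA replication and mitosis.

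Genes in the list of YAP and TAZ targets were mostly higher, over a wide range of sizes. Of 23 tested, 7 were called higher and none lower (2 without the block), against 3.48% and 3.04% over all genes tested. By adjusted p alone 16 were higher and 2 lower (20.5% and 23% over all genes), and the median was 0.63. Ccn1, a secreted matricellular protein, had 12.2, 0.613 and 4.13 CPM in mock and 226, 63.3 and 30.4 CPM in GRP (4.13, SE 0.349, adjusted p = 6.37e-05, and 0.0627 without the block). Mock replicate 1 was the highest of its group, and each GRP library was above it. Ccn2, its relative, went from 8.54, 2.08 and 3.01 CPM to 94.2, 36.8 and 8.83 CPM (3.11, adjusted p = 0.000105), with 23.2% of its exons overlapping Gm15270 on the other strand. Lats2, a kinase that inhibits YAP, rose by 2.07 (adjusted p = 0.000105), with 42.4% of its exons overlapping Gm49361 on the same strand. Nt5e rose by 1.76 (adjusted p = 0.000839) although mock (0.813 to 11.5 CPM) and GRP (6.02 to 46.8 CPM) overlapped. Axl, F3 and Myof were also called. Without the block Ccn2 (adjusted p = 0.0636), Lats2 (0.0676) and Nt5e (0.348) were not called. Yap1 and Wwtr1, which encode YAP and TAZ, had changes of -0.22 (adjusted p = 0.00735) and 0.18 (adjusted p = 0.00621). Tead1 changed by 0.41 (adjusted p = 0.0332). Yap1, Wwtr1 and Tead1 are themselves members of the list, so its counts are not of targets only.

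Genes of the urokinase system were among the largest rises of the whole data set. In the list of urokinase, plasmin and matrix proteases 7 of 21 were called higher and none lower (3 without the block). The shares over all genes tested were 3.48% and 3.04%. Plaur, the urokinase receptor, had 2.37, 0.802 and 7.68 CPM in mock and 98.5, 64.7 and 39.7 CPM in GRP (4.0, SE 0.517, adjusted p = 0.000247), and 18.3, 11.3 and 8.40 CPM in GRP+RC. Plau, urokinase itself, went from 4, 0 and 10 counts to 43, 60 and 72 counts (3.73, adjusted p = 0.000257). Serpinb2, an inhibitor of urokinase, went from 1, 1 and 7 counts to 167, 69 and 40 counts (4.84, adjusted p = 0.00014), with 12.4% of its exons overlapping Serpinb10. Mmp10, a stromelysin, went from 0, 1 and 3 counts to 30, 72 and 7 counts (4.6, adjusted p = 0.00118, and 0.0827 without the block). Receptor, enzyme and inhibitor were thus higher in every GRP library than in any mock library. Timp1 and Adamts9 were also called, Adamts9 at low means of 0.262 CPM in mock and 0.778 CPM in GRP (scaled together with line 1057). Adamts1, with 1150 to 2560 CPM in mock and 2440 to 6660 CPM in GRP, passed by adjusted p (0.98, adjusted p = 0.000961) and was called without replicate 3 (1.26), its mock library (1.29) or its GRP library (1.05), and Mmp2 was not separated (0.19, adjusted p = 0.0638).

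Of 23 matricellular proteins, hyaluronan genes and integrins, 6 were called higher and none lower (2 without the block), against 3.48% and 3.04% over all genes tested. Tnc, the matrix glycoprotein tenascin C, went from 1.44, 1.93 and 4.62 CPM to 60.6, 33.6 and 16.9 CPM (3.67, SE 0.473, adjusted p = 0.000245, and 0.00477 without the block), and the GRP+RC libraries held 5.02, 4.47 and 5.22 CPM. Itga3, which pairs into a laminin receptor, rose by 1.3 (adjusted p = 0.000154, and 0.0662 without the block). Thbs1, thrombospondin 1, was called (1.39, adjusted p = 0.0124, and 0.108 without the block), with 39.8, 83.1 and 47.5 CPM in mock and 254, 125 and 69.9 CPM in GRP. Its change was 0.57 without replicate 1 and 0.64 without its GRP library, and without its mock library the adjusted p was 0.077. Fn1 and Itgb8 were also called. Sparc passed by adjusted p at 0.27 (adjusted p = 0.00193).

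Secreted signals rose in a majority of those measured. Of 36 listed growth factors, cytokines and peptide hormones only 17 passed the filter on low counts, and of these 9 were called higher and 1, Angptl4, lower (5 and 0 without the block). Angptl4 had 0.404, 3.54 and 0.0918 CPM in mock and 0.194, 1.65 and 0.0712 CPM in GRP (scaled together with line 1057), with overlapping groups. The shares over all genes tested were 3.48% and 3.04%. Stc1, the hormone stanniocalcin 1, had 6.80, 4.58 and 24.0 CPM in mock and 154, 88.7 and 125 CPM in GRP (3.35, SE 0.457, adjusted p = 0.000322). Clcf1, a cytokine of the IL6 family, went from 1.77, 0.708 and 2.25 CPM to 15.5, 12.6 and 10.0 CPM (2.97, adjusted p = 7.34e-05). Bdnf, a neurotrophin, went from 3.47, 2.50 and 4.01 CPM to 29.2, 40.9 and 14.5 CPM (2.93, adjusted p = 8.76e-05), with 14.4% of its exons overlapping Gm45346 on the other strand. Nppb, a natriuretic peptide, rose by 2.92 (adjusted p = 0.000608). For each of these genes the lowest GRP library was above the highest mock library. Hbegf, Btc, Lif, Vegfa and Ccl2 were also called. Tgfb1 passed by adjusted p at 0.57 (adjusted p = 0.000815).

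Receptors moved in both directions. Of 18 tested, 5 were called higher and 2 lower (0 and 1 without the block), against 3.48% and 3.04% over all genes tested. C5ar1, the receptor of complement C5a, had 1.49, 2.02 and 0.388 CPM in GRP and at most 0.236 CPM in mock (3.34, adjusted p = 0.000608), and S1pr1, a sphingosine 1-phosphate receptor, rose by 2.22 (adjusted p = 0.00227). Erbb3, a neuregulin receptor, fell from 335, 236 and 134 CPM to 83.5, 53.6 and 69.1 CPM (-1.70, SE 0.189, adjusted p = 0.000133), and Ednrb, an endothelin receptor of the melanocyte lineage, fell by 1.69 (adjusted p = 0.000454) with overlapping groups. Without the block C5ar1 (adjusted p = 0.0571), S1pr1 (0.0621) and Ednrb (0.0807) were not called. S1pr3 passed by adjusted p at 0.97 (adjusted p = 0.000359) and was called without replicate 3 (1.17), its mock library (1.2), its GRP library (1.01) or GRP replicate 2 (1.00), and Met changed by -0.47 (adjusted p = 0.0305). Sphk1, which makes sphingosine 1-phosphate, had 100, 222 and 363 CPM in mock and 716, 1430 and 925 CPM in GRP (2.18, SE 0.315, adjusted p = 0.000422), the only called gene among 6 of the prostaglandin and sphingosine enzymes. Sgpl1, which degrades the same lipid, changed by 0.38 (adjusted p = 0.00248).

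Genes of the ATF4 and unfolded protein response rose too. Of 16 tested, 9 were called higher and none lower (3 without the block), with a median of 1.05. For this and the next 2 lists, the shares over all genes tested were 3.48% called higher and 3.04% lower. Hspa5, the main chaperone of the endoplasmic reticulum, had 487, 616 and 1360 CPM in mock and 2520, 2180 and 2180 CPM in GRP (1.61, SE 0.23, adjusted p = 0.00039). The GRP libraries were close to each other, whereas mock replicate 3 stood above the other mock libraries. Herpud1, an ER stress gene, went from 19.6, 26.2 and 30.9 CPM to 131, 90.1 and 63.5 CPM (1.85, adjusted p = 0.000247), and Chac1 from 1.81, 6.70 and 15.3 CPM to 34.5, 38.1 and 33.8 CPM (2.33, adjusted p = 0.000789). Trib3 rose by 1.46 (adjusted p = 0.00303), and by 0.91 without replicate 1, which ended the call. Atf4, Ddit3, Asns, Phgdh and Xbp1 were the other called members. Without the block Chac1 (adjusted p = 0.0583), Trib3 (0.236) and most of these other members were not called, whereas Hspa5 and Herpud1 kept their calls. Of 19 genes of glycolysis and hypoxia 3 were called higher and 1, Ndrg1, lower, and the glucose transporter Slc2a3 led with a rise of 1.70 (adjusted p = 0.000361). Ndrg1, a hypoxia-induced gene, had 6.65, 0.755 and 1.18 CPM in mock and 1.37, 0.780 and 1.09 CPM in GRP (-1.11, adjusted p = 0.0495), so that the fall lay in replicate 1. It was at -0.04 without replicate 1 (adjusted p = 0.935), -0.72 without its mock and -0.11 without its GRP library (adjusted p = 0.327 and 0.739), and the call also ended without replicate 2 or mock replicate 2 (adjusted p = 0.0608 and 0.0716). The calls of Pfkp (1.11, adjusted p = 0.000308) and Slc2a1 (1.00, adjusted p = 0.00104) each ended without replicate 2 (0.92 and 0.73). The call of Pfkp also ended without mock replicate 1 (1.00), mock replicate 2 (0.98) or GRP replicate 2 (0.98), and that of Slc2a1 without replicate 1 (0.98), mock replicate 2 (0.78), GRP replicate 1 (0.98) or GRP replicate 2 (0.87). Without the block Slc2a3 (adjusted p = 0.0693), Slc2a1 (0.126) and Ndrg1 (0.5) were not called. Gapdh passed by adjusted p at 0.21 (adjusted p = 0.00292). Of 12 NF-kappaB genes 2 were called higher: Tnfaip3, a feedback inhibitor of NF-kappaB, by 1.65 (adjusted p = 0.000865), and Relb by 1.06 (adjusted p = 0.000282), or 0.83 without replicate 1, 0.90 without its mock and 0.92 without its GRP library, which ended the call. Nfkb2 passed by adjusted p at 0.96 (adjusted p = 6.13e-05) and was called without replicate 3 (1.12), its mock library (1.09) or its GRP library (1.05).

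Among pigment genes and melanocyte factors, 3 of 18 were called lower and none higher, the same 3 as without the block. Over all genes tested 3.04% were called lower and 3.48% higher, which also holds for the lists below. Mc1r, the melanocortin receptor, fell from 344, 267 and 206 CPM to 88.4, 74.0 and 76.6 CPM (-1.76, SE 0.118, adjusted p = 3.04e-05), with 17.9% of its exons overlapping Gm38092 on the other strand. Rab27a, which moves melanosomes, fell from 65.4, 73.4 and 49.9 CPM to 19.9, 16.2 and 21.2 CPM (-1.75, adjusted p = 0.000317). Kit, a receptor tyrosine kinase of the lineage, fell from 130, 129 and 64.5 CPM to 40.1, 55.4 and 38.8 CPM (-1.23, SE 0.171, adjusted p = 0.000343). The groups did not overlap for any of the 3, and GRP+RC held 252, 165 and 198 CPM of Mc1r. By adjusted p alone 9 of the 18 were lower and 1 was higher, against 23% and 20.5% over all genes tested. Among the pigment enzymes, tyrosinase (Tyr) had 1960, 2440 and 1680 CPM in mock and 1590, 1610 and 1440 CPM in GRP, lower without overlap but inside the fold limit (-0.38, SE 0.0646, adjusted p = 0.00109, and 0.168 without the block). Dct had 5520, 2950 and 3340 CPM in mock and 5490, 2730 and 3280 CPM in GRP (-0.05, adjusted p = 0.511), Tyrp1 passed by adjusted p in the upward direction at 0.39 (adjusted p = 0.00038), and the lineage factor Mitf had 1170, 740 and 831 CPM against 1330, 693 and 1240 CPM (0.24, adjusted p = 0.25). Of 10 neural crest genes 2 were called higher: Foxd3 by 1.09 (adjusted p = 4.8e-05) and Nes, nestin, by 1.14 (adjusted p = 0.000287), or 0.93 without replicate 2 and 0.97 without its mock library, which ended the call. In the list of cadherins and EMT factors 1 of 10 was called, Cdh6, which rose by 1.64 (adjusted p = 0.00363) and by 1.14 without replicate 1 (adjusted p = 0.0668). Vim, vimentin, passed by adjusted p at 0.63 (adjusted p = 0.000137).

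The largest falls by the rule on named genes were not members of these lists. Cyp7a1, the rate-limiting enzyme of bile acid synthesis, fell from 12.2, 30.4 and 4.80 CPM to 1.14, 1.70 and 0.847 CPM (-3.51, SE 0.33, adjusted p = 8.15e-05), and the potassium channel gene Kcna2 fell by 3.19 (adjusted p = 0.000282). Sp5, a transcription factor of the Wnt pathway, fell by 3.07 (adjusted p = 0.000459) and the ubiquitin ligase gene Rnf144a by 3.0 (adjusted p = 6.13e-05). Bahcc1, a chromatin protein, was the most abundant of the 8, with 74.8, 119 and 51.9 CPM in mock, 10.4, 16.2 and 15.7 CPM in GRP (-2.50, SE 0.198, adjusted p = 5.45e-05) and 36.1, 64.8 and 46.2 CPM in GRP+RC. Lonrf2, Zfp791 and Spo11 fell by 2.69, 2.51 and 2.48. Mock and GRP values did not overlap for any of the 8 genes. They were chosen for their falls in these same libraries, so this is no separate support, and 12.3% of all genes tested lay apart in this direction. Without the block Sp5 (adjusted p = 0.0748) and Spo11 (0.149) were not called. Among the rises, Ptchd1 (4.50, adjusted p = 0.000205) and the neuronal kinase gene Brsk2 (4.39, adjusted p = 0.000154) had 0 to 5 counts in each mock library and 14 to 79 in each GRP library.

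Genes of DNA replication and mitosis were lower, but only the comparison within pairs showed it. Of 22 tested, 6 were called lower and none higher, against 3.04% and 3.48% over all genes tested. By adjusted p alone 20 were lower (23% over all genes), and the median log2 fold change was -0.85 (-0.92, -1.02 and -0.57 in the 3 pairs). Without the block none was called, and in none of the 22 did the mock and GRP libraries separate. Mcm3, a subunit of the replicative helicase, had 131, 53.7 and 39.7 CPM in mock and 62.8, 20.6 and 17.7 CPM in GRP (-1.20, SE 0.0898, adjusted p = 4.61e-05, and 0.364 without the block). Replicate 1 was highest in both groups, and its GRP library lay above mock replicates 2 and 3. Cenpf and Cenpe, kinetochore proteins, fell by 1.29 (adjusted p = 9.94e-05) and 1.19 (adjusted p = 0.000121), Mcm7 by 1.13 (adjusted p = 6.59e-05), and by 0.98 without replicate 2, which ended its call, and Mcm2 by 0.64 (adjusted p = 6.59e-05). Of 17 cyclins and CDK inhibitors 1 was called higher, Btg2, an antiproliferative gene, by 1.36 (adjusted p = 0.000239), and 2 lower, both overlapping between groups: Ccne2 (-1.07, adjusted p = 0.00234) and Cdkn2c (-1.04, adjusted p = 0.000867), which were at -0.91 and -0.74 without replicate 1, both within the fold limit. The call of Ccne2 also ended without replicate 2 (-0.98), mock replicate 1 (-0.84) or mock replicate 2 (-1.0), and that of Cdkn2c without mock replicate 1 (-0.88), mock replicate 2 (-0.97) or GRP replicate 1 (-0.79). Without the block neither Ccne2 nor Cdkn2c was called (adjusted p = 0.515 and 0.282). Ccnd1, cyclin D1, changed by -0.22 (adjusted p = 0.00465).

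Of 15 interferon-stimulated genes 3 were called lower and none higher (1 without the block). Irf1, a transcription factor, fell from 16, 14.8 and 6.29 CPM to 3.62, 4.68 and 3.57 CPM (-1.58, SE 0.225, adjusted p = 0.000385). The other 2 rested on replicate 1 and were not called without the block (adjusted p = 0.492 for Cxcl10 and 0.144 for Cmpk2). Cxcl10 had 21.4, 0.283 and 1.37 CPM in mock and 3.62, 0.184 and 1.02 CPM in GRP (-1.86, adjusted p = 0.00367), and -0.45 without replicate 1 (adjusted p = 0.473), -0.74 without its mock and -1.04 without its GRP library (adjusted p = 0.162 and 0.153). Cmpk2 (-1.75, adjusted p = 0.0197) was at -0.65 without replicate 1 (adjusted p = 0.419) and also lost its call without replicate 2, mock replicate 1, mock replicate 2, GRP replicate 1 or GRP replicate 2 (adjusted p = 0.138, 0.156, 0.0507, 0.173 and 0.055). Stat2 changed by -0.43 (adjusted p = 0.00442). Against the background of 3.48% and 3.04%, no member was called among 18 genes of ribosome biogenesis, 18 of cholesterol and fatty acid synthesis and 11 of the BCL2 family, where Mcl1 (0.69, adjusted p = 0.000514) and Bcl2l1 (0.34, adjusted p = 0.00696) passed by adjusted p alone. Scd2 of lipid synthesis fell by 0.60 (adjusted p = 0.00151) and Ncl of ribosome biogenesis changed by 0.16 (adjusted p = 0.0414), in a list where 10 of 18 were higher and 1 lower by adjusted p alone, with a median of 0.2. Over all genes tested 20.5% were higher and 23% lower by adjusted p alone. Among 19 protein kinase C and calcium effector genes 1 was called lower, Prkcq (-1.25, adjusted p = 0.0223), which was at -0.42 without replicate 1 (adjusted p = 0.551) and also lost its call without replicate 2, mock replicate 1, mock replicate 2 or GRP replicate 1 (adjusted p = 0.0848, 0.223, 0.0538 and 0.323). Without the block Prkcq was not called (adjusted p = 0.366).

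Promoter windows of 300 bases (250 before to 50 after the start) were found for 342 of the 480 genes called higher, 296 of the 420 called lower and 9959 of the 13794 tested, and a gene with several windows counted once if any held the motif on either strand. A CArG box was present in 18 of the genes called higher (5.26%), in 2 of those called lower (0.676%) and in 157 of all tested (1.58%). The AP-1 element TGACTCA, or TGAGTCA on the other strand, was present in 27 (7.89%), 12 (4.05%) and 423 (4.25%). The cAMP response element TGACGTCA was present in 20 (5.85%), 5 (1.69%) and 371 (3.73%), and its core TGACG, which every full element contains, in 125 (36.5%), 73 (24.7%) and 3550 (35.6%). The TEAD element GGAATG was present in 71 (20.8%), 43 (14.5%) and 1407 (14.1%). Over all 32851 windows of the RefSeq table the shares were 1.63% for the CArG box, 5.2% for the AP-1 element, 1.79% for the cAMP response element, 20.8% for its core and 14.7% for the TEAD element. The shares in genes called higher were above those in all genes tested for the CArG box, the AP-1 element, the full cAMP response element and the TEAD element, and close to it for the core, but these differences were not tested. These are letter matches and do not show that a factor is bound.

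Line 1057, the other line of the series with its own Grpr, was treated in the same way, and the effect of GRP in 1064 minus that in 1057 was tested over 15090 genes. Each side is a single line, both female with E-cadherin deleted. Which trait of the lines goes with a difference was not tested. The test shares an estimate of the spread over both lines, whose replicates were unequally spread, so its p-values can be too small. The effect was called larger in 1064 for 115 genes (0.762%) and smaller, meaning lower or more negative, for 256 (1.7%), and without the block for 20 and 48. Of the 480 genes called higher in 1064, 50 had a larger and 30 a smaller effect than in 1057, and for 400 the difference was not called. Of the 420 called lower, 79 had a more negative effect, none a larger one, and for 341 it was not called. Grpr was lower in 1057, with 242, 244 and 244 CPM in mock and 186, 178 and 189 CPM in GRP, and its effect there was -0.40 on the log2 scale against -0.98 in 1064 in this fit (difference -0.58, SE 0.132, adjusted p = 0.00493, under the fold limit).

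**Figure D5:**
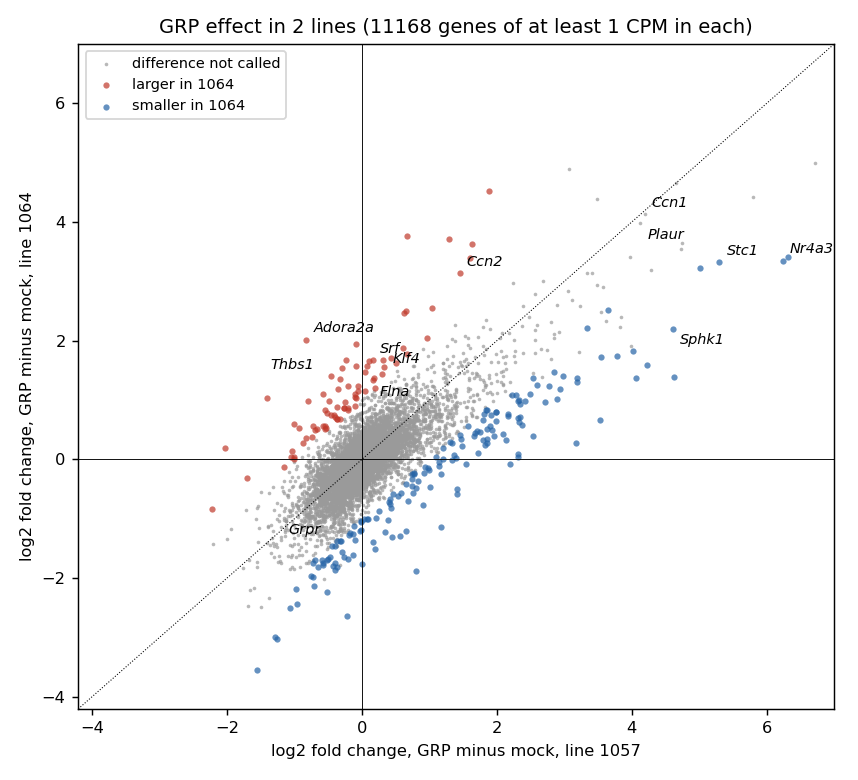
Log2 fold change of GRP over mock in line 1057 (x axis) and line 1064 (y axis) for 11168 genes of at least 1 CPM in a group of each line and no group at 0; red and blue mark genes whose effect is called larger or smaller in 1064, and the dotted line marks equal effects. Srf lies at 1.67 in 1064 and 0.16 in 1057, Nr4a3 at 3.35 and 6.24, and Ccn1 near the line at 4.14 and 4.19.

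In the blocked fit several early and cytoskeletal genes rose more in 1064 than in 1057. Srf had 41.8, 40.6 and 38.7 CPM in mock and 45.2, 45.2 and 45.3 CPM in GRP in line 1057, a log2 fold change of 0.16 against 1.67 in 1064 (difference 1.51, SE 0.174, adjusted p = 9.18e-06). For Flna, filamin A, the effects were 1.34 in 1064 and 0.16 in 1057 (difference 1.17, adjusted p = 0.000254, or 0.83 without 1064 replicate 2, which ended the call). Klf4 (1.44 and 0.30, difference 1.14, adjusted p = 0.000136) and Ccn2 (3.14 and 1.45, difference 1.69, adjusted p = 0.00287) also had larger effects in 1064. Thbs1 rose by 1.40 in 1064 and had a change of -0.45 in 1057 (difference 1.85, adjusted p = 0.00333), and Adora2a, an adenosine receptor, had changes of 2.02 and -0.82 (difference 2.84, SE 0.244, adjusted p = 3.21e-07). Without the block the differences of Srf (adjusted p = 0.058), Flna (0.515), Klf4 (0.125), Ccn2 (0.462) and Thbs1 (0.0717) were not called, and that of Adora2a was. By list, against 0.762% and 1.7% over all genes, 3 of 24 KLF, IER and other early response genes had a larger effect in 1064 and 0 a smaller one, of 19 SRF targets and actin genes 2 had a larger and 1 a smaller effect, of 18 AP-1, EGR and NR4A factors 1 and 1, and of 23 members of the list of YAP and TAZ targets 2 and 1.

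In the blocked fit some of the strongest responders of both lines rose less in 1064 than in 1057. Nr4a3 went from 3.15, 3.10 and 2.21 CPM to 202, 231 and 206 CPM in 1057, a change of 6.24 against 3.35 in 1064 (difference -2.88, SE 0.53, adjusted p = 0.000925). Its mock level in 1064 (20.4 to 158 CPM in this fit) was above that of every mock library of 1057. The same held for Sphk1, with 13.6 to 15.7 CPM in mock of 1057 and 99.7 to 365 CPM in mock of 1064 (changes of 4.61 and 2.19, difference -2.42, adjusted p = 9.06e-05). For Stc1 the difference was -1.98 (adjusted p = 0.0115), and -0.87 without 1064 replicate 3, which ended the call. Without the block the differences of Nr4a3 (adjusted p = 0.15) and Stc1 (0.135) were not called, and that of Sphk1 was. Ccn1 (4.14 and 4.19, difference -0.05, SE 0.435, adjusted p = 0.979) and Plaur (3.99 and 4.13, difference -0.14, SE 0.65, adjusted p = 0.941) had close estimates in both lines, but the difference for Plaur was 1.54 without 1064 replicate 3 (adjusted p = 0.000104).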

How the data were processed

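Per the labels, RNA was extracted from mouse melanoma cell lines after 4 h of treatment, and libraries were made from polyadenylated RNA with a stranded kit. According to the submitters' processing notes and the study's methods, quality control used FastQC 0.11.5 and reads were aligned with STAR to GRCm38.p5 (mm10) with GENCODE annotation; the version of STAR and the strand setting of the counting are not given in the sources used here. The authors deposited raw read counts per gene and a table of TPM values (scaled to transcript length and library size). Both tables hold 72 libraries, of which 12 columns of the TPM table (line 1057) were not used; 50376 of the 50600 gene IDs (99.6%) were found in the GENCODE annotation of the same assembly used here for positions.

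Counts of the 12 libraries of line 1064 (20525837 to 32668855 per library) were filtered with filterByExpr, scaled by TMM and fitted with the quasi-likelihood test of edgeR 4.0.16 in R 4.3.3, with the 4 treatments as groups and the replicate number as a block. Calls required a p under 0.05 after Benjamini-Hochberg adjustment over all 13794 genes tested and a log2 fold change beyond 1 in either direction, the study's fold limit. All p-values printed are two-sided. CPM are counts scaled to the TMM-adjusted library size. The labels do not say whether same-numbered libraries are separate cultures, so p-values measure the spread between these libraries. Whether the numbers pair the libraries was checked on the deviations from the treatment means: mock and GRP libraries of the same number correlated at 0.70, 0.64 and 0.56 over genes and those of unlike number at -0.48 to -0.11, so the block was kept. Replicates of line 1064 differed by far more than counting noise, so none was a copy of another. Those of line 1057 were not checked in this way. They lay much closer together for many genes: the SD of the mock libraries was 1.38 CPM in 1057 and 224 CPM in 1064 for Grpr. For Amotl1 it was 1.21 and 74.4 CPM, but for Cenpe 19.5 and 14.3 CPM. The difference test shares an estimate of the spread over both lines, so its p-values do not reflect this inequality and can be too small. The difference between lines was fitted on the 24 libraries of lines 1064 and 1057 with a block for the replicate number within each line (15090 genes tested). Alternatives were no block, the 6 mock and GRP libraries alone, DESeq2 1.42.0, its size factors, no filter, no fold limit, each replicate or library left out, and limma 3.58.1 on log2(TPM + 1). The scripts were tested on simulated counts. Promoter windows come from RefSeq on GRCm38.p6.

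The members and the 26 gene lists (510 genes) were chosen with earlier results of these data known. Named are the bombesin receptors and ligands, in each list up to 4 called members with the largest change and up to 2 uncalled members with the highest mean CPM, the 12 largest rises and 8 largest falls among called genes of at least 1 CPM in mock or GRP that are not predicted genes, and the 5 largest and 5 smallest differences from line 1057. Nr4a1, Yap1, Wwtr1, Mitf, Tyr and Ndrg1, further members named without values, and further genes in the comparison with 1057 were named after their values were seen. Some genes that the rule covers are not reported here.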

Additional observations from a re-analysis of the deposited data

Results flagged for a closer look

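The difference from line 1057 was followed through the alternative fits for 25 genes. For 22 of these the effect of GRP in line 1064 differed from that in line 1057 by the interaction test of edgeR (adjusted p under 0.05 and a difference beyond 1 on the log2 scale). Other genes named above passed the same limits but were not followed, among them Itga3 (-1.88), Dclk1 (-1.34), Cyp7a1 (-1.97), Kcna2 (-2.27), Cxcl10 (-2.68), Cnn2 (1.27) and F3 (1.46). Of the 22, only the differences of Adora2a, Sphk1, Cpne9 and Inhba were called without the replicate block. The effect in 1064 was larger for Adora2a (difference 2.84), Thbs1 (1.85), Ccn2 (1.69), Srf (1.51), Atf3 (1.2), Flna (1.17) and Klf4 (1.14), and also for Rgs16 (1.99), whose difference was not called without 1064 replicate 1 (1.64, adjusted p = 0.0752) or replicate 2 (1.46, adjusted p = 0.11). That of Atf3 was 0.87 and that of Flna 0.83 without 1064 replicate 2, which ended both calls. Tgfbi, a secreted matrix protein, had 0.147, 0.0944 and 0.0918 CPM in mock and 0.155, 4.64 and 0.890 CPM in GRP in 1064 (difference 3.10, and 1.49 without replicate 2, adjusted p = 0.131). Mum1l1 (difference 4.04) had at most 0.178 CPM in each mock and GRP library of 1064, so the group mean of at least 1 CPM needed for its naming was in 1057. Its call ended without 1064 replicate 1 (adjusted p = 0.1) or replicate 3 (adjusted p = 0.175).

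The effect in 1064 was smaller or more negative for Nr4a3 (difference -2.88), Sphk1 (-2.42), Stc1 (-1.98), Mki67 (-1.01) and Spp1 (-1.0), the last the secreted protein osteopontin. The calls of Stc1 and Spp1 ended without 1064 replicate 3 (-0.87 and -0.77) and that of Mki67 without 1064 replicate 1 (-0.83, adjusted p = 0.153). For Cpne9 the difference was -4.04, with 0.142 to 0.826 CPM in mock and 0.276 to 0.712 CPM in GRP in 1064 and a rise from at most 0.082 CPM to 0.779, 1.28 and 1.16 CPM in 1057.

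For 6 genes a group was at 0 in all 3 libraries, so the fitted size is not interpretable and only the test is given. Slc16a11 (adjusted p = 0.00174) and Inhba, an activin subunit (adjusted p = 0.00658), were at 0 in mock of 1057 and at 0.928 to 1.01 CPM and 1.46 to 1.48 CPM in GRP there. Inhba was also higher with GRP in 1064, at 0.0918 to 0.184 CPM in mock and 0.322 to 0.852 CPM in GRP. It was below the filter on low counts in the fit of that line. Svep1 (adjusted p = 0.00857) and Msmp (adjusted p = 0.0236) were at 0 in GRP of 1064 after at most 0.330 and 0.142 CPM in mock. Mmp1a (adjusted p = 0.0202) was at 0 in mock of 1064 and had 0.232, 0.460 and 0.0356 CPM in GRP, and Bmp4 (adjusted p = 0.043) had 0.194 CPM in GRP replicate 1 of 1064 and 0 in the other mock and GRP libraries of the line. Bmp4 had 1.04 to 1.46 CPM in mock and 0.928 to 1.4 CPM in GRP of 1057. For Svep1, Msmp and Mmp1a too, the group mean of at least 1 CPM needed for their naming was in 1057. Without 1 replicate of 1064, the calls of Mmp1a ended (replicate 1, adjusted p = 0.0538; replicate 2, 0.112), as did those of Bmp4 (replicate 1, 1.0), Msmp (replicate 1, 0.139; replicate 2, 0.112) and Svep1 (replicate 2, 0.0876).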

How the results depend on the processing

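The replicate block decided the number of calls. Without it 210 genes were called higher and 110 lower in line 1064, and 20 and 48 differences from line 1057 were called larger and smaller. With adjusted p alone 2833 genes were higher and 3173 lower. On log2(TPM + 1) with limma 237 were called higher and 220 lower, and there the median change of all genes was -0.126 against -0.024 in counts. Leaving out a replicate or library gave 347 to 651 genes higher and 252 to 601 lower, and 94 to 167 larger and 198 to 304 smaller differences. The effect in 1064 was followed through these fits for 119 genes, of which 84 were called. Of these 84, 49 were called without the block, 65 in every fit that left out a replicate or library, 80 by DESeq2 and 65 on TPM, and none reversed. Called members named without values are not all among the 84, so these shares do not hold for every gene named. Of the 22 called differences that were followed, 4 were called without the block, 10 in every fit that left out a replicate and 19 by DESeq2, and none reversed. DESeq2 lost the calls of Mmp10 (adjusted p = 0.0692), Ndrg1 (0.144), Prkcq (0.0592) and Rgs8 (0.0548). Values that changed sign were all uncalled by the main test: Dct without mock replicate 2 (0.03, range over fits without a replicate or library -0.09 to 0.03), Jun without replicate 2 (-0.01, range -0.01 to 0.34), Mitf without GRP replicate 3 (-0.01, range -0.01 to 0.41), and the differences from 1057 of Ccn1 (0.06 without the block, 0.46 without 1064 replicate 3, 0.12 by DESeq2, range over fits without a replicate -0.45 to 0.46) and Plaur (0.06, 1.54 and 0.12, range -0.69 to 1.54). The cause was not tested. Genes with few counts in mock, such as Npas4 and Mmp10, have poorly fixed fold changes at this depth.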
